A study of Mus musculus with 3 samples.

Results

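The genes for 10 nuclear receptors of the intestinal epithelium, the estrogen-related receptors left out, were examined for binding of ESRRA, an orphan receptor known for its control of mitochondrial energy genes, in villus cells of the mouse duodenum. They were Hnf4a, Hnf4g, Ppara, Ppard, Nr1h4, Nr1h3, Rxra, Vdr, Nr1i2 and Nr1i3, and were chosen by name. A gene was given each peak whose midpoint was no more than 30 kb from any of its annotated start sites, and genes with no such peak were kept. By this rule 9 of the 1639 ESRRA peaks of the series fell to 5 of the 10 genes. The cells came from wild-type C57BL/6 mice on regular chow, with no transgene, deletion or treatment in either group. The age of these mice and the number pooled in a library are not given in the sources used here. There were 2 ESRRA ChIP libraries and 1 input library of sheared chromatin, and peaks were called on the 2 ChIP libraries together, so no value below has a replicate error. The list gives the place of each peak, always 601 bp wide, with no height, score or read depth. The labelled cell type could not be checked against its markers, because no expression was analysed here.

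Nuclear receptors are transcription factors that bind short DNA sequences through zinc fingers, and most are controlled by a small lipid-soluble ligand. The hexamer AGGTCA is the half-site that many of them share. Receptors such as PPARA, VDR, FXR, LXR, PXR and CAR bind a pair of half-sites together with the partner RXRA, HNF4 proteins bind a pair as dimers of their own, and ESRRA can bind a single half-site extended at its front, TCAAGGTCA. In the enterocyte, HNF4A and HNF4G maintain the differentiated state, PPARA and PPARD switch on the use of fatty acids, FXR (Nr1h4) and LXRα (Nr1h3) respond to bile acids and oxysterols, VDR to vitamin D, and PXR (Nr1i2) and CAR (Nr1i3) to foreign compounds.

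The DNA of the peaks is shown first, because the sequence is the measure that the choice of the genes did not use. The stretches below are read from the mm9 genome 5′ to 3′ on the strand given and lie outside annotated exons. Capitals mark AAGGTCA, the core of the extended half-site, and any match to TCAAGGTCA with 1 mismatch, which at Vdr reads as its reverse complement. In the last line they also mark the second half-site of a pair.
Hnf4a, intron, chr2:163353496-163353721, plus strand: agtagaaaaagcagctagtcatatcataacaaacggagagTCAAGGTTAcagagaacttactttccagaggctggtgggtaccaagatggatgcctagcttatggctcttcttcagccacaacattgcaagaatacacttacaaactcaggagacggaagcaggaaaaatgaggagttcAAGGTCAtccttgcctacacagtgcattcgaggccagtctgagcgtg
Hnf4a, downstream, chr2:163401046-163401132, plus strand: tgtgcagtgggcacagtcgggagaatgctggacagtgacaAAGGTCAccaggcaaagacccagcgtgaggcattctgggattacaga
Ppara, promoter, chr15:85565610-85565698, minus strand: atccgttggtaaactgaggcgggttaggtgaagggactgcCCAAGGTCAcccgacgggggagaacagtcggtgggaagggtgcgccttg
Vdr, intron, chr15:97711035-97711186, plus strand: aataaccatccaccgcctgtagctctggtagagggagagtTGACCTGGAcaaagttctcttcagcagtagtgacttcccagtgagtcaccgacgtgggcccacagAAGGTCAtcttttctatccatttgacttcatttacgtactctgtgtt
Nr1i2, intron, chr16:38287869-38287964, plus strand: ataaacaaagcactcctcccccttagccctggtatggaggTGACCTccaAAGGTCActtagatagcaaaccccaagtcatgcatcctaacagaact

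The remaining 4 peaks held no AAGGTCA, and a stretch of each is given for comparison. Capitals mark a match to TCAAGGTCA with 1 mismatch in the Hnf4a peak nearest to a start site, a GATA and a CDX hexamer (the latter as its reverse complement) before the inner start site of Hnf4g, and a pair of half-sites in the Vdr peak. The middle of the second Hnf4a peak holds no such match.
Hnf4a, second intronic peak, chr2:163354427-163354527, plus strand: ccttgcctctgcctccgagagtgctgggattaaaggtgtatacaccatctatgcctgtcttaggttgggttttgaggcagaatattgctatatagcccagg
Hnf4a, last intronic peak, chr2:163355528-163355628, minus strand: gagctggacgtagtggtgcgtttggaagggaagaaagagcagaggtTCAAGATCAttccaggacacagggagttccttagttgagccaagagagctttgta
Hnf4g, before the inner start site, chr3:3633986-3634149, plus strand: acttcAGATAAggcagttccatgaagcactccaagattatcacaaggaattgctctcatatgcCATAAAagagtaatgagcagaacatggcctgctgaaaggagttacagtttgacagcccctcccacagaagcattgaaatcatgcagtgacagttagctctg
Vdr, intron near the first start sites, chr15:97735467-97735567, minus strand: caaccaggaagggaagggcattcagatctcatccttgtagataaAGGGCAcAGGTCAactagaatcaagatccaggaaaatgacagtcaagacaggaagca

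ESRRA peaks lay at Hnf4a, Hnf4g, Ppara, Vdr and Nr1i2, and at none of Ppard, Nr1h4, Nr1h3, Rxra and Nr1i3. The share was thus 50.0% of the 10 genes, where 1956 of the 22367 annotated protein-coding genes (8.75%) had a peak by the same rule. Hnf4a had 4 peaks, Vdr had 2 and the other 3 bound genes had 1 each. At least 2 peaks were found at 2.05% of protein-coding genes and at least 4 at 0.362%, and the most at any gene was 21. The median number of start sites was 6 in the unbound and 5 in the bound genes. The 10 genes did have longer windows than most genes, with a median of 98.34 kb against 60.05 kb, since they have more start sites spread over longer genes. Of the 2568 protein-coding genes with a window of at least that median, 8.45% had a peak. The 10 genes were named with earlier results of these peaks in view, so their count is a description and was not tested.

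**Figure D1:**
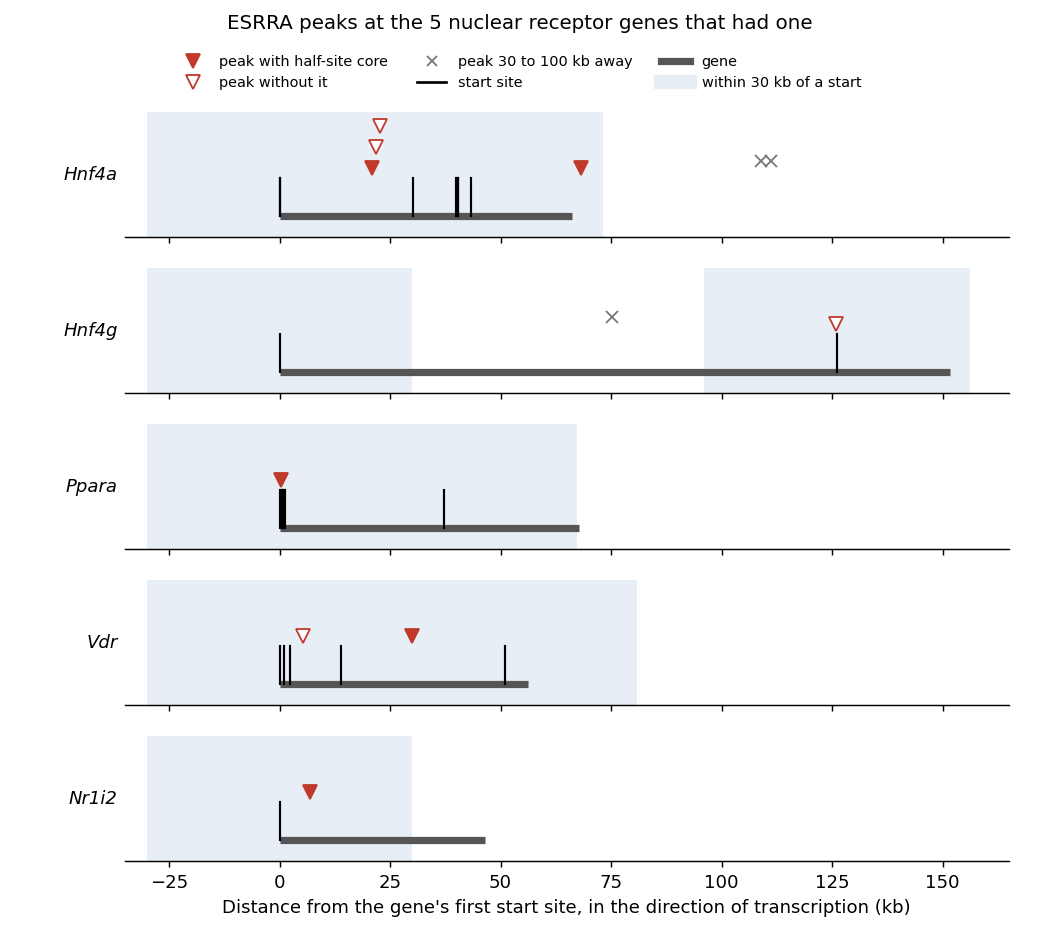
Position of the ESRRA peaks (triangles, filled where the peak holds AAGGTCA; staggered where they would overlap) along the 5 genes that had one, in kb from the first start site of the gene in the direction of transcription. Black ticks are start sites, the grey bar is the gene and the blue field covers 30 kb on each side of any start site. The first 3 Hnf4a peaks stand together between the first and the next group of start sites, the Hnf4g peak sits on the inner start site, and crosses show peaks 30 to 100 kb away.

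Hnf4a encodes the receptor best known for keeping enterocyte genes active, and it has several alternative promoters. The gene (ENSMUSG00000017950.9) spans chromosome 2 from 163332544 to 163398646 on the plus strand, with 7 annotated start sites between 163332544 and 163375819. The first 3 of its peaks lay in an intron at 163353246 to 163353846, 163354177 to 163354777 and 163355039 to 163355639. Their midpoints were 21002, 21933 and 22795 bp downstream of the first start site and 9209, 8278 and 7416 bp upstream of the next one, at 163362755. Only 330 and 261 bases separated these peaks from each other. The midpoints were 931 and 862 bp apart, and all 3 had a neighbour within 1 kb, as did 53 of all 1639 peaks (3.23%). The fourth peak, at 163400542 to 163401142, was intergenic, 2196 bp past the end of the gene and 25023 bp from the last start site. Of the 9 peaks it was the nearest to the 30 kb limit, and the only one of the 9 with another protein-coding start site within that distance, that of Ttpal.

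The sequence differed between these neighbours. The first intronic peak was the only one of the 9 with the full TCAAGGTCA, at 163353673 to 163353681 on the plus strand, 131 bp from its midpoint. It also held TCAAGGTTA at 163353536 to 163353544, a match with the substitution C8T (counted from 1 at the 5′ end of TCAAGGTCA) that lay 6 bp from the midpoint. The second peak had no match closer than 2 mismatches. The last intronic peak held TCAAGATCA (G6A) on the minus strand at 163355574 to 163355582, near its edge, 239 bp from the midpoint. The downstream peak held AAGGTCA at 163401086 to 163401092, also towards its edge, 247 bp from the midpoint.

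Hnf4g encodes the paralog of HNF4A, which is found mainly in the intestine and a few other epithelia. The gene (ENSMUSG00000017688.8) covers chromosome 3 from 3508030 to 3659775 on the plus strand and has 2 annotated start sites 126120 bp apart. Its peak spanned 3633883 to 3634483 and was centred 33 bp past the inner start site at 3634150, the shortest distance of any of the 9 peaks. Only 0.170% of protein-coding genes had a peak still nearer to a start site. No peak lay within 30 kb of the outer start site. Of the 601 bases, 198 were exonic and 136 coding. The peak held neither AAGGTCA nor a match to TCAAGGTCA with 1 mismatch, and its GC content of 40.4% was the lowest of the 9. It held AGATAA, the core read by GATA factors, 190 bp before the midpoint, and TTTATG, a core read by CDX factors, on the minus strand 132 bp before it. The first peak outside the limit lay in the intron between both start sites at 3582981 to 3583581, 50.9 kb before the inner one. The start site nearest to it was that of another annotated gene, AC107454.1, at 27816 bp, and it held ACAAGGTCA (T1A) 53 bp from its midpoint.

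Ppara encodes the fatty acid sensor that drives peroxisomal and mitochondrial oxidation of fatty acids. The gene (ENSMUSG00000022383.7) lies on chromosome 15 from 85565413 to 85633249 on the plus strand, and 5 of its 6 start sites are within 1148 bp of the first. The single peak at 85565412 to 85566012 covered this promoter, with its midpoint 299 bp downstream of the first start site and 282 bp upstream of the next. It had the highest GC content of the 9 peaks, 70.2%. The half-site CCAAGGTCA (T1C) lay at 85565650 to 85565658 on the minus strand, 58 bp from the midpoint and outside annotated exons. GGGCGGG, a core of SP and KLF factors, lay 48 bp on the other side of the midpoint. PPARD, the related receptor that is also active in enterocytes, stood apart from this: the nearest peak to any of the 6 start sites of Ppard, on chromosome 17, was 822362 bp away.

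Vdr encodes the vitamin D receptor, which controls calcium uptake by the duodenum. The gene (ENSMUSG00000022479.9) is on the minus strand of chromosome 15, from 97684856 to 97741061, with 5 start sites. Both of its peaks were intronic and 24570 bp apart. The one at 97735428 to 97736028 lay 5333 bp downstream of the first start site and 3013 bp from the nearest, and held no AAGGTCA. With up to 2 mismatches allowed, it held the only direct repeat with 1 base between its half-sites found in the 9 peaks. This was AGGGCA and AGGTCA (T4G, counted over the repeat from its 5′ end), at 97735511 to 97735523 and 211 bp from the midpoint. Direct repeats with other spacings were looked for only as exact pairs of AGGTCA. Next to the repeat found, at 202 bp from the midpoint, lay an AGATAA. The other peak, at 97710858 to 97711458, was 29903 bp from the first start site and 16086 bp from the nearest. It held 3 copies of AGGTCA. One of these was in AAGGTCA at 97711140 to 97711146, 15 bp from the midpoint, and another in TCCAGGTCA (A3C) on the minus strand at 97711075 to 97711083. The AP-1 sequence TGACTCA lay between them, 39 bp from the midpoint.

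Nr1i2 encodes PXR, the receptor for bile acids and drugs that induces detoxifying enzymes. It is the only one of the 10 genes with a single annotated start site, at 38294910 on the minus strand of chromosome 16 (ENSMUSG00000022809.4, 38248409 to 38294910). Its peak at 38287637 to 38288237 was intronic, 6973 bp downstream of that start site. It held 4 copies of AGGTCA on either strand, the most of the 9 peaks, and 41 of 1306 other single-copy peaks (3.14%) held at least 4. A peak is called single-copy here if its 24-base words had a median of at most 10 copies in the genome. AAGGTCA lay at 38287918 to 38287924, 16 bp from the midpoint. TGACCT stood 4 bases before its AGGTCA, so that both half-sites pointed away from each other. Such an everted pair 4 bases apart was found in 1 of the 1306 other single-copy peaks (0.0766%), and a pair in any orientation 0 to 8 bases apart in 51 of them (3.91%). This arrangement was looked for after the sequence had been seen.

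The other 5 receptors had no peak near them. The nearest peak was 286211 bp from a start site of Nr1h3, which encodes the oxysterol receptor LXRα, and 286352 bp from Rxra, the common partner, both on chromosome 2. It was 1286092 bp from Nr1i3, the CAR gene on chromosome 1, and 1590264 bp from Nr1h4, the FXR gene on chromosome 10. Together with Ppard, these genes held a peak neither within 100 kb of a start site nor in the gene body. The median distance over the 10 genes was 147 kb, and over all protein-coding genes 448 kb. Of protein-coding genes, 39.0% were nearer to a peak than Nr1h3 or Rxra, 66.1% nearer than Ppard, 76.5% nearer than Nr1i3 and 81.1% nearer than Nr1h4. The 10 distances thus left a gap between 7416 bp (Hnf4a) and 286211 bp (Nr1h3) with no gene in it. A gene without a peak here is one with none in the list as deposited, and binding that was under the threshold or was filtered out cannot be seen in these positions.

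**Figure D2:**
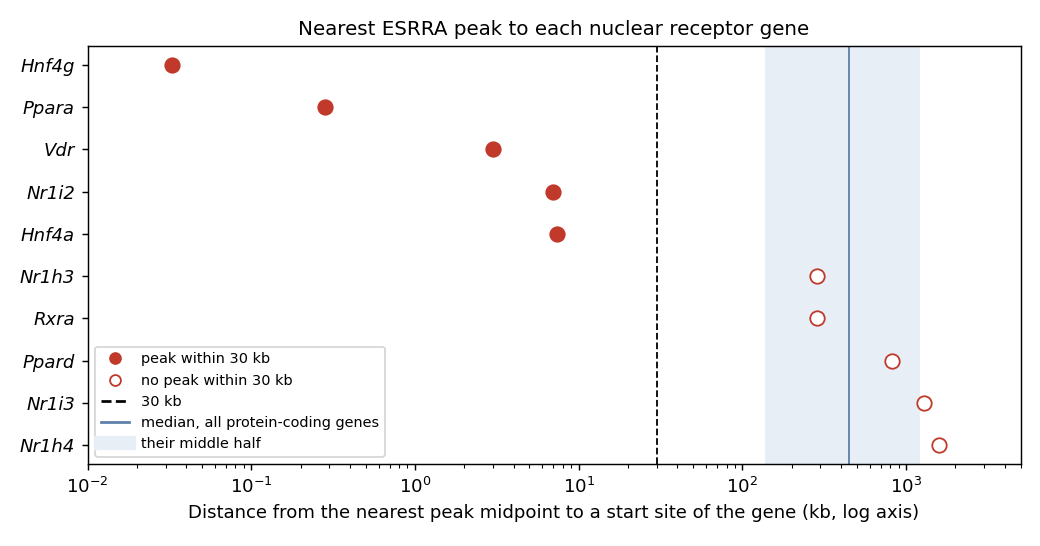
Distance in kb, on a log axis, from the nearest ESRRA peak midpoint to a start site of each of the 10 genes. Filled points lie within 30 kb (dashed line), open points beyond it; the blue line is the median of all protein-coding genes (448 kb) and the blue field holds their middle 50%. The 5 bound genes lie at 7.42 kb or less, and the 5 unbound genes at 286 kb or more.

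By place in the gene, 6 of the 9 peaks were in introns, 2 at promoters (within 1 kb of a start site) and 1 between genes. The share in introns was 66.7% (exact binomial 95% interval 29.9 to 92.5%), beside 29.0% of the other 1630 peaks, and that at promoters was 22.2% (interval 2.81 to 60%) beside 29.9%. The sets are unlike: the 9 peaks were taken within 30 kb of a start site, and the other 1630, of which 35.5% were intergenic, at any distance. The 10 genes were also long, with a median of 67 kb against 15.4 kb for protein-coding genes. The difference in intron share was not tested. These intervals cover counting error over 9 peaks only, and peaks of the same gene, such as the 3 neighbours in the Hnf4a intron, are not independent. For all 9 peaks the nearest start site of any gene belonged to the receptor itself. The median 24-base word of every one of the 9 occurred 1 time in the genome, while 324 of all 1639 peaks (19.8%) consisted mostly of words with more than 10 copies. Only exact words were counted, so diverged copies of a repeat would be missed, and no repeat annotation was used. The median GC content of the 9 peaks was 49.9%, beside 50.4% in the other single-copy peaks.

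AAGGTCA was present in 5 of the 9 peaks, or 55.6% (exact binomial 95% interval 21.2 to 86.3%), and in 671 of the 1306 other single-copy peaks (51.4%). It was found in 1 of 16 windows of the same width 2 kb to the side of the 9 peaks (6.25%), in 12.8% of such windows beside the other single-copy peaks, and in 8.35% of 69949 windows of this width centred on start sites of protein-coding genes. The full TCAAGGTCA, which contains AAGGTCA, was in 1 of 9 peaks (11.1%), 17.8% of other single-copy peaks, 1.88% of their flanking windows and 0.909% of start-site windows. With 1 mismatch allowed, 4 of 9 peaks (44.4%), 55.1% of other single-copy peaks and 21.3% of their flanking windows held it. For each of these measures of the half-site, the share among the other peaks lay inside the interval of the 9 receptor peaks, which is too wide to show any but a large difference. The closest match lay within 50 bp of the midpoint in 312 of the 720 other single-copy peaks with at most 1 mismatch (43.3%) and in 0 of the 4 receptor peaks, although the weaker match at Hnf4a was 6 bp from it. In flanking windows of the other single-copy peaks this was so for 106 of 522 (20.3%). Within 100 bp of the midpoint, 3 of the 9 peaks held AAGGTCA (33.3%), as did 35.2% of the other single-copy peaks.

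**Figure D3:**
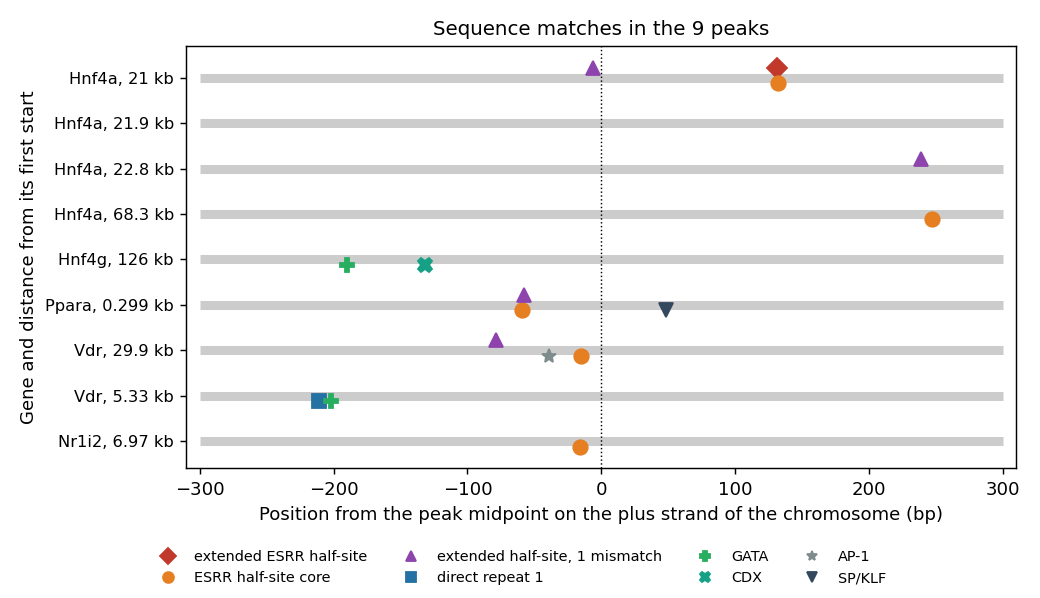
Sequence matches in the 9 peaks, by position in bp from the midpoint on the plus strand of the chromosome. Each grey bar is a 601-bp peak, labelled with its gene and the distance of its midpoint from the first start site, and each symbol is a match on either strand. Matches to the ESRR half-site core lie 15 and 16 bp from the midpoint at Vdr and Nr1i2, 59 bp at Ppara, and 132 and 247 bp at Hnf4a.

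The sequences read by other enterocyte factors were each found in 0 to 2 of the 9 peaks. CAAAGTCCA, a form of the HNF4 site, was in 0 of the 9 peaks (interval up to 33.6%), 2.99% of other single-copy peaks, 1.19% of their flanking windows and 0.942% of start-site windows. The direct repeat of AGGTCA with 1 base between, which is read by HNF4 and by PPAR with RXR and shares letters with AAGGTCA, was in 1 of 9 with up to 2 mismatches allowed, in 20.3% of other single-copy peaks, in 11.1% of their flanking windows and in 7.25% of start-site windows. It was also in 5 of the 16 windows flanking the 9 peaks. AGATAA was in 2 of 9 and 28.2%, TTTATG in 1 of 9 and 26.5%, TGACTCA in 1 of 9 and 14.9%, and GGGCGGG in 1 of 9 and 18.5% of other single-copy peaks. In windows flanking the other single-copy peaks these 4 were in 27.3%, 32.3%, 11.2% and 6.87%, and in start-site windows in 17.5%, 17.4%, 7.65% and 37.1%. CCGGAAG, the ETS core, and TGACGTCA, the CRE, were in 0 of 9, in 9.65% and 1.38% of other single-copy peaks, in 2.98% and 0.327% of their flanking windows, and in 14.7% and 2.41% of start-site windows. These are matches of letters on both strands, not measured sites.

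The wider family and the genes around these receptors were counted by the same rule. Of 36 further nuclear receptor genes, the estrogen-related receptors again left out, 4 had a peak (11.1%, beside 8.75% of all protein-coding genes). Thra, the thyroid hormone receptor, and Nr1d1, the clock repressor REV-ERBα, shared the same 4 peaks, the nearest 825 bp and 2054 bp from their start sites. Nr0b2, which encodes the repressor SHP, had 1 peak 315 bp upstream of its start site. The single peak 9853 bp upstream of Esr1, the estrogen receptor gene, was multi-copy, and its place is uncertain. The estrogen-related receptors aside, peaks were thus listed at 9 of 46 nuclear receptor genes, and 5 of the 9 were among the 10 described here. Of 15 cofactor genes, 3 (20.0%) had 1 peak each. They were Ncoa6, a coactivator (14622 bp), Nrip1, the corepressor RIP140 (18657 bp), and Lcor, another corepressor (29254 bp). The Ncoa6 peak was within 1 kb of a start site of another gene.

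Textbook target genes of the same receptors were counted in the same way, and the differences between these lists were not tested. The lists were drawn up with earlier results of these data known, so their shares are descriptions only. The share over all protein-coding genes was 8.75%. Of 12 genes known to respond to HNF4, 8 had a peak (66.7%), with 22 distinct peaks, of which 8 were at promoters and 6 held AAGGTCA. Of the 1630 peaks outside the 10 receptor genes, 29.9% were at promoters and 43.9% held AAGGTCA. They lay at any distance from a gene, while the 22 were taken within 30 kb of a start site, so the promoter shares are of unlike sets. Among the 1306 of the 1630 peaks that were single-copy (a median of at most 10 copies), 51.4% held it. All 22 were single-copy in this sense, the highest median being 10, at Fabp2. The 6 of 22 with AAGGTCA is a smaller share than both, and this was not tested. Apoa1 had 6 peaks, and Apoc3, Apob and Apoa4 had 5 each; these encode apolipoproteins of chylomicrons. Fabp1, a fatty acid carrier, had 4. Apoa1, Apoa4 and Apoc3 are neighbours and together had 6 distinct peaks, 5 of them common to all 3 genes. Counted as 1 locus, which was decided after seeing the peaks, they left 6 of 10 loci with a peak. Of 18 PPAR target genes, 2 had a peak (11.1%, near the 8.75% of all protein-coding genes). Acadm, a fatty acid oxidation enzyme, had 1 peak 216 bp before its start site. Ucp2, a mitochondrial carrier, had 1 at 4183 bp, and both peaks held AAGGTCA.

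FXR targets had a peak in 3 of 8 cases (37.5%). These were Nr0b2, Slc51b, annotated as Ostb and a subunit of the bile acid exporter of the enterocyte, with 1 peak 367 bp before its start site, and Abcb11, the hepatic bile salt pump, whose 1 peak at 25408 bp was multi-copy. LXR targets had a peak in 2 of 9 cases (22.2%). Lpcat3, a phospholipid-remodelling enzyme, had 3 peaks, the nearest at 10797 bp. Npc1l1, the cholesterol importer, had 2, the nearest at 6710 bp. All 3 peaks at Lpcat3 and 1 of the 2 at Npc1l1 were within 1 kb of a start site of another gene. PXR and CAR targets had a peak in 2 of 10 cases (20.0%), with 2 peaks at the drug-metabolizing Cyp3a13 and 1 multi-copy peak at Abcb1a, the exporter P-glycoprotein. Of 7 VDR targets, 0 had a peak (exact binomial 95% interval up to 41%), and the 8.75% of all protein-coding genes lies inside this interval. These lists hold between 7 and 18 genes, and neighbouring genes share peaks, so the shares are given without a test. None of the 9 receptor peaks lay within 30 kb of a start site of a listed gene.

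**Figure D4:**
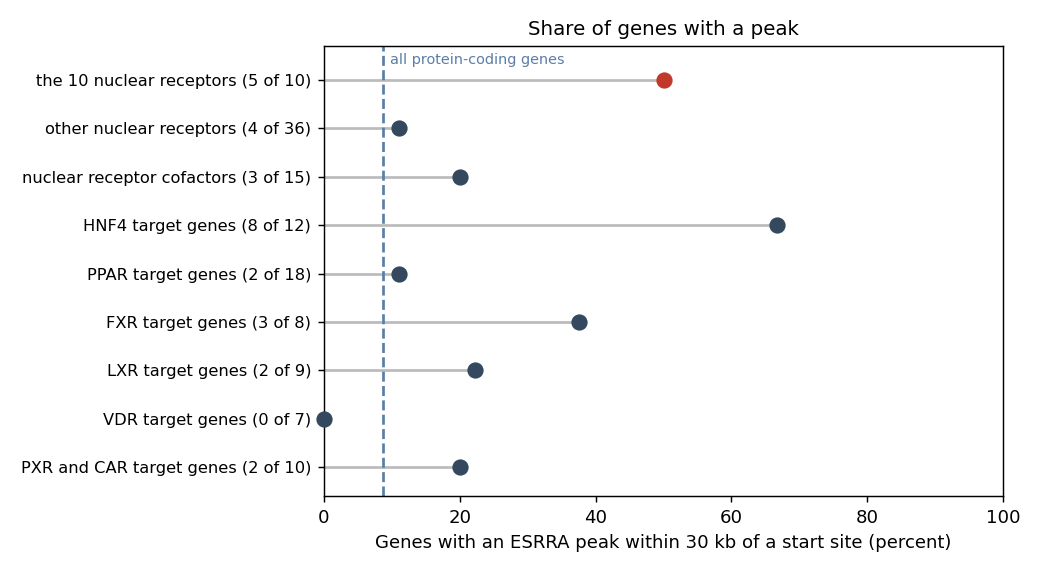
Percent of genes with an ESRRA peak within 30 kb of a start site, for the 10 receptors (red) and for lists of related genes (dark), with the number of genes in parentheses. The dashed line is the share of all protein-coding genes, 8.75%. HNF4 target genes (66.7%) and the 10 receptors (50.0%) lie highest, and VDR target genes are at 0. The 10 receptors and the lists were chosen with earlier results of these data known, and the shares were not tested.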

How the data were processed

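ESRRA ChIP-seq was carried out on duodenal villus cells (2 ChIP libraries and 1 input library, grouped by title). As the study's methods and the submitters' processing notes state, the authors aligned paired-end reads to mm9 with Bowtie2 2.2.6, merged both ChIP libraries with SAMtools 0.1.19 and called peaks with MACS2 at a p-value of 1e-05. FastQC 0.11.3 and deepTools 2.4.2 are also named. The deposited values were a chromosome, start and end for each peak, with no score. How every peak came to be 601 bp wide and which regions were filtered is not given in the sources used here. Depth and replicates therefore could not be compared.

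Coordinates are counted from 1. The genome was NCBI build 37 (mm9) with GENCODE M1, and distances run from the peak midpoint to the start sites of all transcripts of a gene. The 10 genes and the gene lists were chosen with earlier results of these data known. All 10 genes were named, with the gene nearest to each of their peaks, and up to 5 genes per list by number of peaks. Motifs were matched exactly unless stated, on both strands. Flanking windows 2 kb away that touched a peak or a gap were left out. Peaks whose 24-base words had a median above 10 copies in the genome were called multi-copy, and all other peaks single-copy. Intervals are exact (Clopper-Pearson) and cover counting error only. Python 3.11.15, NumPy 2.4.6, SciPy 1.17.1 and numba 0.67.0 were used, and the functions were tested on simulated data. The alternatives were other distances (10, 50 and 100 kb), only the first start site, any overlap, single-copy peaks, joined peaks, other promoter definitions and other forms of the half-site.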

Additional observations from a re-analysis of the deposited data

How the results depend on the processing

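The number of receptor genes with a peak was 5 within 10, 50 and 100 kb, for any overlap and for single-copy peaks, and 4 with the first start site only, which left out Hnf4g because its peak is at the inner start site. The number of peaks at these genes ranged from 7 (10 kb, first start site only, or peaks less than 1 kb apart joined) to 12 (100 kb), and joining left Hnf4a with 2. The number of protein-coding genes with a peak moved with the distance by its construction, from 1956 to 1038 (4.64%) within 10 kb and 4423 (19.8%) within 100 kb. The share of the 9 peaks with the half-site, 55.6% for AAGGTCA, was 11.1% for the longer TCAAGGTCA. The list counts moved more: cofactors with a peak ranged from 0 within 10 kb to 6 within 100 kb and were 1 with the first start site only, and other nuclear receptors ranged from 3 to 9. PPAR targets went from 2 to 4 within 50 or 100 kb, LXR targets from 2 to 1 within 10 kb or with the first start site only, and PXR and CAR targets from 2 to 1 (10 kb, first start site only or single-copy peaks) or 5 (100 kb). FXR targets ranged from 2 to 4. HNF4 targets stayed at 8 under each distance and start site setting, and VDR targets at 0.

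A stricter p-value and leaving out each ChIP library could not be run, since both need values that the merged list does not hold. No paired analysis was possible because the result comes from no test and the 2 ChIP libraries share 1 peak list. Without heights, a weak peak and a strong one count alike.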

Other observations

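Beyond the 30 kb limit, 2 further peaks stood 65590 and 67859 bp from the last start site of Hnf4a, at 163441109 to 163441709 and 163443378 to 163443978 on chromosome 2. Both had their midpoint in an untranslated exon of Ttpal, whose start site was nearer (4153 and 6422 bp). The second held TCAAGGTCA 153 bp from its midpoint and the first TCAAAGTCA (G5A) 238 bp from it. Just outside the limit among the related genes were Ep300, a coactivator (31544 bp), and Rxrb, a further partner of these receptors (31921 bp), each counted as having no peak. Both were singled out after their values were seen.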
